A study of Homo sapiens with 4 samples.

Results

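AHNAK and AHNAK2 encode giant scaffold proteins, and nearly all of the coding sequence of each gene lies in a single exon built largely from repeated units. The crosslink sites described here are all listed sites, at any score, whose gene label holds the exact symbol AHNAK or AHNAK2. They came to 393 of the 158922 sites in the PDCD4 list and to 120 of the 111361 sites in the IgG list. AHNAK held 343 of the PDCD4 sites and 100 of the IgG sites, and AHNAK2 held 50 and 20. Every one of these sites carried a single gene in its label and lay on the strand of the gene. The genes were selected on earlier results of these lists, with their summed scores known, so their levels and ratios are given as a description, without a test.

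The sites come from iCLIP of MCF10A cells, a non-transformed human breast epithelial line of wild-type genotype, in which 2 replicates used an antibody to PDCD4 and 2 used IgG as the control. In this assay, RNA is joined to protein by UV light, the protein is pulled down, and the ends of the reverse-transcribed cDNAs mark the nucleotide in contact with it. Each site is 1 nt wide, and its score is the number of cDNAs counted there, pooled over the replicates of an immunoprecipitation. Since no value per replicate was available, no difference between PDCD4 and IgG could be tested, and every interval below covers counting error only.

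PDCD4 is a tumour suppressor and RNA-binding protein best known as an inhibitor of translation initiation. AHNAK, also called desmoyokin, is found beneath the plasma membrane of epithelial cells, where it binds the complex of S100A10 and annexin A2 and contributes to the organisation of cortical actin. AHNAK2 is its paralogue. Both proteins consist of a short N-terminal part with a PDZ-like domain, a long array of repeats and a C-terminal part, and the array is encoded without interruption by an intron.

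AHNAK (ENSG00000124942) occupies chr11:62433542-62556235 in GRCh38 and is transcribed from the minus strand. Its longest coding transcript has 5 exons, 3 of them coding, and 17328 of its 17670 coding nucleotides (98.1%) lie in the last exon, from 62516747 to 62534074, followed there by a 3′UTR of 845 nt. AHNAK2 (ENSG00000185567) occupies chr14:104937244-104978374, also on the minus strand. Its longest coding transcript has 7 exons, and the last exon holds 16734 of 17385 coding nucleotides (96.3%), from 104938066 to 104954799. In both genes no other annotated gene overlaps on the same strand. Positions within these exons are counted below from 1 at the 5′ end of the exon.

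The strongest sites of each gene are shown first, because they give the sequence that was in contact at the highest counts. Each window is 29 nt of the transcribed strand of GRCh38, 5′ to 3′, with the listed crosslink position in capitals. For AHNAK in the PDCD4 list, the 5 highest sites were 4 coding sites and 1 site in the 3′UTR.
AHNAK, PDCD4 score 9, coding, chr11:62519318-62519346: aaatgcctaaaattCatatgagtggtcct
AHNAK, PDCD4 score 7, 3′UTR, chr11:62516552-62516580: ggctcctggaactaTacagataggtaaag
AHNAK, PDCD4 score 7, coding, chr11:62517782-62517810: gggctgctcctgatAtcagtgtgaagggg
AHNAK, PDCD4 score 7, coding, chr11:62527243-62527271: agctcccaaaatctCtatgccagacctcg
AHNAK, PDCD4 score 7, coding, chr11:62533359-62533387: aagccaggcttgacTatccaagcccctca
These sites were spread over the whole exon, at positions 14743, 16279, 6818 and 702 for the coding ones. In each of these coding windows, the 30 bases that follow the site occur at 1 place in the genome. The highest IgG sites of AHNAK and the highest PDCD4 sites of AHNAK2 are given for comparison.
AHNAK, IgG score 7, coding, chr11:62527269-62527297: ttcaagatgccagaTatgcactttaaagc
AHNAK, IgG score 6, 3′UTR, chr11:62515989-62516017: tttttaacaaatgtTatcatgattaagaa
AHNAK2, PDCD4 score 6, coding, chr14:104946654-104946682: ggacctgaaaggccCcaaggcggaggtga
AHNAK2, PDCD4 score 6, coding, chr14:104947675-104947703: gcccccagctagatGtcaagggccccaag
The highest IgG site of AHNAK, at exon position 6792, lay 26 nt from the PDCD4 site of score 7 at position 6818. In AHNAK2, the 30 bases after the site at position 7111 occur 9 times in the exon, whereas those after the site at position 8132 occur 1 time. No IgG site of AHNAK2 exceeded a score of 3.

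AHNAK carried 1013 cDNAs in the PDCD4 list, which ranked 7 of 14416 genes, and 273 cDNAs in the IgG list, which ranked 48. Per 10000 cDNAs of each list these sums were 24.8 and 9.89, a 2.5-fold difference (log2 ratio 1.32, 95% interval 1.13 to 1.52). AHNAK2 carried 155 cDNAs in the PDCD4 list (rank 353) and 45 in the IgG list (rank 1618). Its levels were 3.79 and 1.63 per 10000 cDNAs, a 2.29-fold difference (log2 ratio 1.19, 0.729 to 1.73). AHNAK was thus several times more heavily covered than AHNAK2 in both lists, while the intervals of the PDCD4 over IgG ratio overlapped between the genes. Of the 9594 genes with at least 10 cDNAs over both lists, 18.8% had a log2 ratio above 1, and the median was -0.08. AHNAK stood at percentile 86.9 and AHNAK2 at percentile 85.0 of these ratios. The amount of AHNAK and AHNAK2 RNA was not analysed here, and its part in the site numbers was not tested. The sums count listed sites only. In these genes a lone site, with no other of its list within 3 nt, scored at least 3 for PDCD4. Lone IgG sites were listed from a score of 2. According to the methods, positions crosslinked in IgG were also subtracted from PDCD4. The ratios and intervals are not adjusted for these limits, and their effect was not tested.

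**Figure D1:**
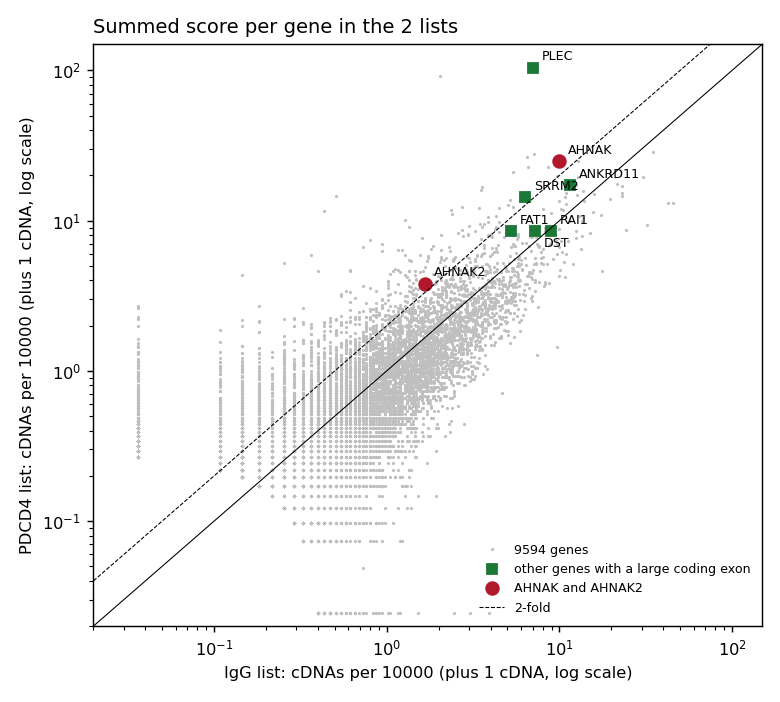
Summed score of each gene per 10000 cDNAs in the IgG list (horizontal axis) and the PDCD4 list (vertical axis), with 1 cDNA added and both axes on a log scale. Grey points are 9594 genes, the solid line marks equal levels and the dashed line a 2-fold difference. AHNAK and AHNAK2 (red circles) lie just above the dashed line, and green squares are other genes with a large coding exon.

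The excess over IgG in AHNAK was made up of many low scores rather than a few high ones. Of its 343 PDCD4 sites, 43 had a score of 1, 64 a score of 2, 144 a score of 3, 66 a score of 4 and 17 a score of 5. Only 9 sites (2.62%, 95% Wilson interval 1.39% to 4.91%) had a score above 5, against 1.48% of all PDCD4 sites, and the mean score was 2.95, against 2.58 over the list. The 100 IgG sites of AHNAK had a mean score of 2.73, with 48 sites at a score of 2 and 2 above 5. For AHNAK2, 30 of the 50 PDCD4 sites had a score of 3 and the mean was 3.1, whereas 15 of the 20 IgG sites had a score of 2 and the mean was 2.25. In both genes, PDCD4 sites with a score of 1 or 2 were listed only within 3 nt of another PDCD4 site. Lone IgG sites were listed from a score of 2. The most frequent scores and the means of the lists are therefore not like for like. With only scores greater than 5, the filter named in the methods of the study, AHNAK had 61 cDNAs against 13. The totals of the lists fell to 19332 and 4980 cDNAs at this filter, so that their ratio rose from 1.48 to 3.88. Relative to these totals the log2 ratio of AHNAK was 0.19 (counting interval -0.606 to 1.26), and relative to the totals of all sites it was 1.58 (0.783 to 2.65). These 2 values use the same AHNAK cDNAs and differ only in the totals. Why the ratio is lower relative to the filtered totals was not tested. AHNAK2 then had 12 cDNAs in the PDCD4 list, and no IgG site was listed. When sites were counted in place of cDNAs, the log2 ratio of AHNAK2 was 0.77, below a 2-fold difference, and that of AHNAK was 1.25.

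The sites of AHNAK lay almost entirely in coding sequence. Of the PDCD4 sites, 306 (89.2%, 95% Wilson interval 85.5% to 92.1%) were coding, 22 (6.41%) lay in the 3′UTR and 15 (4.37%) in introns. Of the IgG sites, 79 (79.0%, 70.0% to 85.8%) were coding, 9 (9.0%) lay in the 3′UTR and 12 (12.0%) in introns. AHNAK2 was more intronic in both lists. Its PDCD4 sites were 31 coding (62.0%, 48.2% to 74.1%), 2 in the 3′UTR and 17 in introns (34.0%), and its IgG sites 11 coding (55%, 34.2% to 74.2%), 1 in the 3′UTR and 8 in introns (40.0%). The 17 include a run of adjacent nucleotides, chr14:104965410-104965416, with scores of 1 or 2. With sites within 20 nt merged, the coding share of the AHNAK2 PDCD4 sites was 68.3% (28 of 41). No 5′UTR site of either gene was listed.

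By point value, the PDCD4 over IgG ratio was highest in the coding part of both genes. For AHNAK it was 1.47 on the log2 scale in coding sequence (900 cDNAs against 218, 1.26 to 1.7), 0.63 in the 3′UTR (61 against 26, -0.0217 to 1.38) and 0.25 in introns (52 against 29, -0.408 to 0.983). The coding and intronic intervals of AHNAK did not overlap, while the coding and 3′UTR intervals did. For AHNAK2 the log2 ratio was 1.47 in coding sequence (106 cDNAs against 25, 0.877 to 2.21). It was 0.85 in the 3′UTR (7 against 2, -1.15 to 4.54) and 0.61 in introns (42 against 18, -0.173 to 1.54). Both of these intervals overlapped that of the coding sequence.

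Per length, the large exon of AHNAK was far more densely covered than its introns. Densities here and below are listed sites per length, not scaled to the 158922 PDCD4 and 111361 IgG sites of the lists. They are also not adjusted for the different lowest scores of lone sites in the lists. The coding part of the large exon held 303 PDCD4 sites, or 17.5 sites per kb (exact Poisson interval 15.6 to 19.6), and 78 IgG sites, or 4.5 per kb (3.56 to 5.62). The 3′UTR in the same exon held 26.0 PDCD4 sites per kb (16.3 to 39.4) and 10.7 IgG sites per kb (4.87 to 20.2), so the 3′UTR was not less densely covered than the coding part in either list. The introns of AHNAK, 12144 nt in all, held 1.24 PDCD4 sites per kb and 0.823 IgG sites per kb (2 further IgG sites lay in introns of other transcripts), and 14 of the 15 intronic PDCD4 sites lay in the first intron. The other exons of AHNAK, 588 nt in all, held 3 PDCD4 sites (5.1 per kb, 1.05 to 14.9) and 1 IgG site, with intervals that overlapped those of the introns. The exon of AHNAK2 was about as long but held 29 PDCD4 sites, or 1.73 per kb (1.16 to 2.49), and 11 IgG sites, or 0.657 per kb (0.328 to 1.18). All 17 intronic PDCD4 sites and all 8 intronic IgG sites of AHNAK2 lay in its first intron of 20510 nt, at 0.829 and 0.39 sites per kb. The densities of exon and introns were therefore closer to each other in AHNAK2 than in AHNAK.

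**Figure D2:**
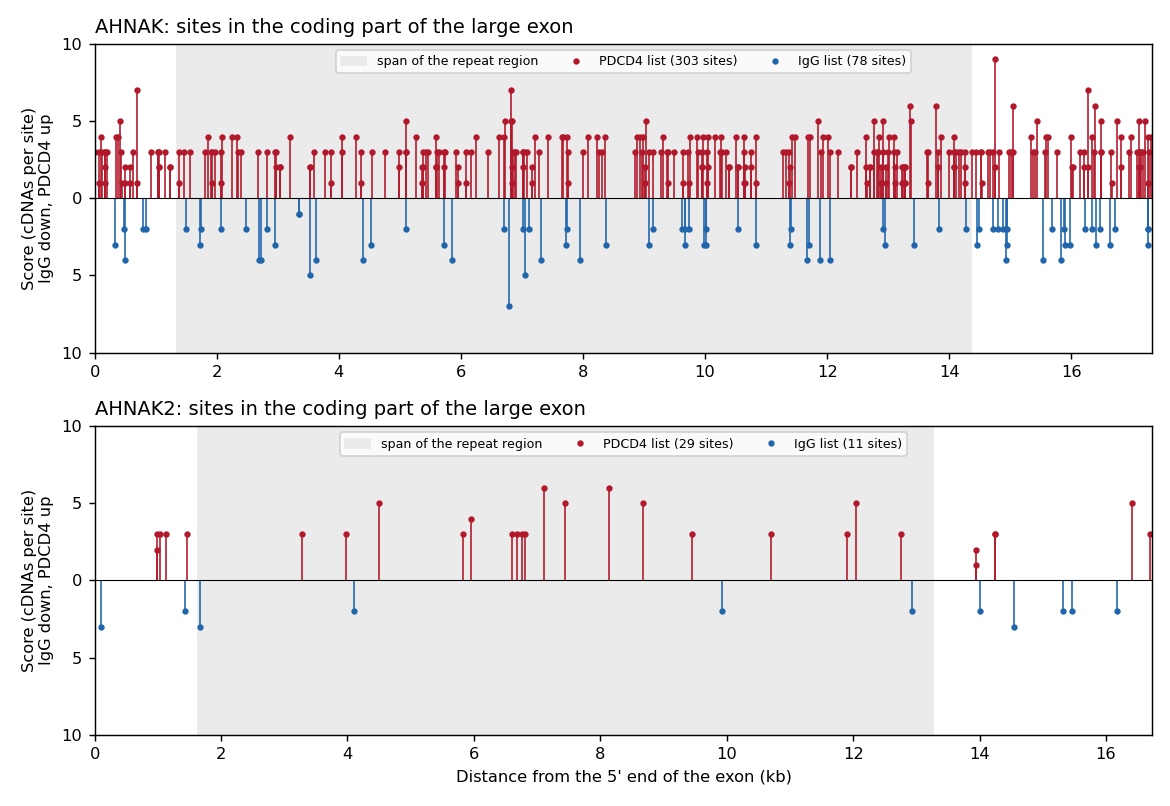
Listed sites in the coding part of the large exon of AHNAK (upper panel) and AHNAK2 (lower panel), by distance from the 5′ end of the exon in kb. Stems show the score of each site in cDNAs, upwards for PDCD4 (303 and 29 sites) and downwards for IgG (78 and 11 sites), and grey marks the span between the first and last repeat positions. Sites of AHNAK are found along the whole exon, and no score exceeds 9.

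Along the AHNAK exon, sites were present from end to end. When the coding part was cut into 10 bins of equal length, each bin held between 18 and 43 PDCD4 sites. The lowest density, 10.4 sites per kb (6.16 to 16.4), was in bin 3 and the highest, 24.8 per kb (18.0 to 33.4), in bin 8. Bins 1 and 10, at the ends of the exon, both had 20.2 per kb (14.1 to 28.1). IgG sites numbered between 4 and 14 per bin, with 14 in bin 10 (8.08 per kb, 4.42 to 13.6) and 4 in bin 8 (2.31 per kb, 0.629 to 5.91), where PDCD4 was highest. The part beyond the middle of the exon held 57.4% (51.8% to 62.9%) of the PDCD4 sites and 57.7% (46.6% to 68.0%) of the IgG sites. In AHNAK2 each bin held between 1 and 5 PDCD4 sites and at most 3 IgG sites, too few to separate the bins, and 41.4% (25.5% to 59.3%) of the PDCD4 sites lay beyond the middle.

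**Figure D3:**
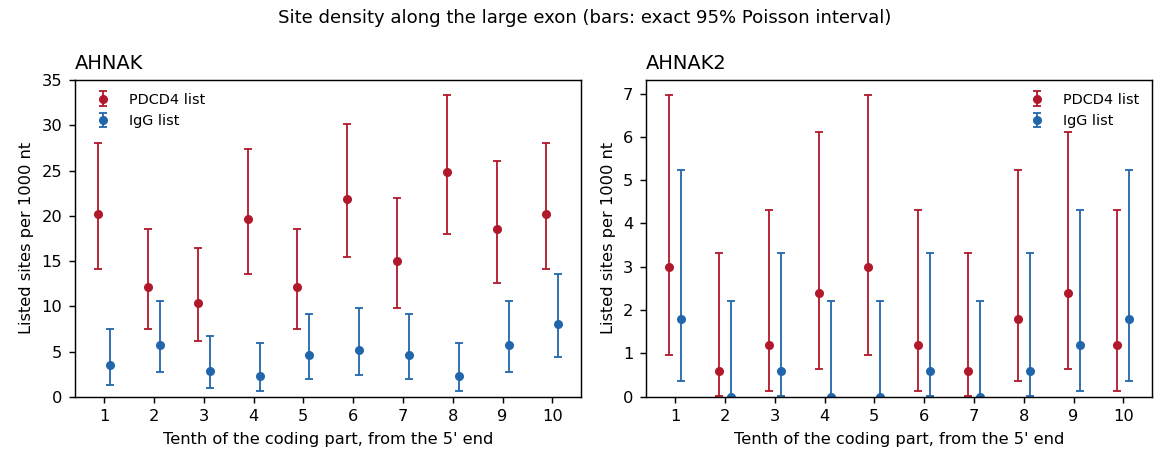
Listed sites per kb in each of 10 bins of the coding part of the large exon, from the 5′ end, for AHNAK (left) and AHNAK2 (right), with exact 95% Poisson intervals as bars. PDCD4 (red) ranges from 10.4 to 24.8 sites per kb in AHNAK and lies above IgG (blue) in every bin, with overlapping intervals in bins 2, 3 and 5. Densities are not scaled to the sizes of the lists (158922 PDCD4 and 111361 IgG sites). In AHNAK2 the intervals overlap in every bin.

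Neighbouring PDCD4 sites in the AHNAK exon lay a median of 34.0 nt apart, and the longest stretch without a site was 484 nt. Of the gaps between neighbours, 126 (41.7%) were 20 nt or shorter. PDCD4 sites with a score of 1 or 2 were listed only within 3 nt of another site, so such sites always add short gaps. Joining sites across such gaps gave 177 clusters, of which 99 were single sites. The heaviest cluster spanned positions 6818 to 6851 with 6 sites and 23 cDNAs, which is 2.58% of the cDNAs in the exon. The next held 14 cDNAs at 3 sites around the highest site (positions 14724 to 14745) and 13 cDNAs at 5 sites (positions 1033 to 1056). The exon thus had no dominant site, and its 5 highest PDCD4 sites together made up 4.03% of its cDNAs. IgG sites of AHNAK were a median of 147.0 nt apart and formed 65 clusters. AHNAK2 had a median gap of 328.0 nt between PDCD4 sites, a longest gap of 2168 nt and 23 single sites among 26 clusters.

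Some sites of the lists lay near each other. Of the 78 IgG sites in the AHNAK exon, 20 (25.6%) were within 5 nt of a PDCD4 site, while 14.6% of all positions of the exon were that close to one. At 3 positions of the exon, and 4 of the gene, both lists held a site. According to the methods, positions crosslinked in IgG were subtracted from PDCD4 ahead of peak calling, and how these shared positions remained was not tested. In the AHNAK2 exon no PDCD4 site was within 5 nt of an IgG site.

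The repeats were located from the sequence of each exon alone. The AHNAK exon was most similar to itself when shifted by 384 nt (128 codons), with 53.0% of bases identical, and the AHNAK2 exon when shifted by 495 nt (165 codons), with 70.4% identical. Both periods are whole numbers of codons. The next best shift that was not a multiple of the period gave 38.3% identity in AHNAK and 37.0% in AHNAK2. In AHNAK2 the identity was still 68.6% at 2 periods, against 44.5% in AHNAK. Positions with at least 50% identity to the neighbouring unit in a window around them were taken as repeat region. They made up 65.1% of the coding part of the AHNAK exon, between positions 1346 and 14358, and 69.5% of that of AHNAK2, between positions 1634 and 13256.

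PDCD4 sites were found inside the repeats of both genes, at a somewhat lower density than in the rest of the AHNAK exon. In AHNAK, 177 of 303 PDCD4 sites (58.4%, 52.8% to 63.8%) lay in the repeat region. Among the 8 sites with a score greater than 5 in this exon, 2 (25%) did. The densities were 15.7 sites per kb (13.5 to 18.2) in the repeats and 20.8 per kb (17.3 to 24.8) in the rest, a log2 ratio of -0.41 (-0.745 to -0.0658). IgG sites of AHNAK had the same direction, with 3.73 and 5.95 sites per kb (log2 ratio -0.68, -1.35 to 0.00884). In AHNAK2, 18 of 29 PDCD4 sites (62.1%, 44% to 77.3%) lay in the repeats, at 1.55 per kb against 2.15 in the rest (log2 ratio -0.47, -1.64 to 0.754), and both of its sites with a score greater than 5 were among the 18. The 18 AHNAK2 sites in repeats had a mean score of 3.83 and the 11 others 2.82, without an interval. The 11 include sites with a score of 1 or 2 listed close to another site, and the 18 include none. Of the 11 IgG sites of AHNAK2, 4 lay in repeats.

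cDNAs from identical stretches of the units cannot be placed at a single position, so the number of copies of the sequence after each site was counted. The following 30 bases occurred once in the exon for 78.8% of all positions of the AHNAK exon and for 254 of its 303 PDCD4 sites (83.8%, 79.3% to 87.5%). The corresponding values for AHNAK2 were 69.1% of positions and 23 of 29 PDCD4 sites (79.3%, 61.6% to 90.2%). For the sites in the coding part of the large exons, where copies were counted, these 30 bases had no copy in the genome outside the exon itself. When only positions with a single copy were considered, the density in AHNAK was 16.3 PDCD4 sites per kb in the repeats (13.6 to 19.4) and 21.7 in the rest (18.1 to 25.9), and the log2 ratio was again -0.41 (-0.775 to -0.0424). For AHNAK2 the ratio became -0.25 (-1.56 to 1.07).

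Pair counts of PDCD4 sites in AHNAK at the repeat period lay within the range found at other distances. At a distance of 384 nt, allowing 2 nt on either side, there were 22 pairs of sites, and at 2 and 3 periods there were 29 and 23 pairs, against a mean of 25.1 pairs (range 9 to 49) over all distances from 50 nt to just past 3 periods. The count also includes sites outside the repeat region. Identity was only 53.0% at 1 period and 44.5% at 2, so positions at these distances often do not match. The count therefore cannot decide whether sites recur at matching places of the units. In AHNAK2 no pair of PDCD4 sites lay 1 or 2 periods apart and 1 pair lay 3 periods apart. The mean there was only 0.215 pairs per distance (range 0 to 4), too few to show a pattern.

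**Figure D4:**
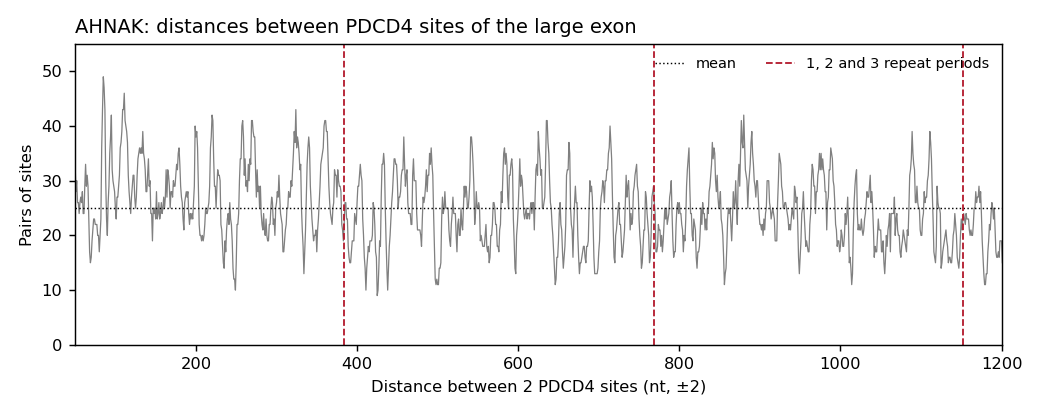
Number of pairs of PDCD4 sites in the coding part of the AHNAK exon (vertical axis) at each distance in nt, allowing 2 nt on either side (horizontal axis). Dashed lines mark 1, 2 and 3 repeat periods, where 22, 29 and 23 pairs were found, and the dotted line marks the mean of 25.1 over distances of 50 nt or more. Shorter distances are not drawn. Among them, distances of 2 and 3 nt held 93 and 95 pairs, while a distance of 26 nt held 10. Sites with a score of 1 or 2 were listed only within 3 nt of another site.

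The windows around a PDCD4 site with the highest score inside the repeats of each gene show single units. In AHNAK this site had a score of 6, at exon position 13785. The unit after it differs by 1 base in the window and also held a PDCD4 site, with a score of 3, 1 nt before the matching position, while the unit before it differs by 5 bases and had none within 2 nt. The capital marks the site or the matching position of the other unit.
AHNAK, unit before, no site, chr11:62520660-62520688: aagggccccaaattTaaaatgcctgactt
AHNAK, PDCD4 score 6, chr11:62520276-62520304: aagggccccaagttCaagatgcctgagat
AHNAK, unit after, PDCD4 score 3 at 1 nt from the capital, chr11:62519892-62519920: aagggccccaagttCaagatgcctgaaat
In AHNAK2 the window of the site at position 8132 has 23 other copies with at least 80% identity, 1 of them identical over the 29 nt. None of the 23 copies held a PDCD4 or an IgG site within 2 nt. The other AHNAK2 site with a score of 6, at position 7111, was not compared with its copies in this way. The bases that follow it occur 9 times in the exon. Those that follow an IgG site of score 3 at position 1667 also occur 9 times, and both windows hold tcaagggccccaag. An IgG site in a similar stretch of another unit is thus listed for position 7111. For the site at position 8132, the identical copy, the unit before and the unit after are shown.
AHNAK2, identical copy, no site, chr14:104950119-104950147: ggacctgaaaggccCcaaggcggaggtga
AHNAK2, unit before, no site, chr14:104947149-104947177: ggacctgaaaggccCcaaggcggaagtga
AHNAK2, PDCD4 score 6, chr14:104946654-104946682: ggacctgaaaggccCcaaggcggaggtga
AHNAK2, unit after, no site, chr14:104946159-104946187: ggacctgaaaggccCgaagacggacgtga
How reads with several equally good positions were handled is not given in the sources used here, so a unit without a listed site is not shown to be free of contact.

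The bases at the sites of AHNAK were set beside those of its exon and of other coding sites in the same list. The listed position was T in 37.3% (32.0% to 42.9%) of the 303 PDCD4 sites in the exon, against 21.4% of all positions of the exon and 34.4% of 32885 PDCD4 sites in other coding sequences. The base after it was G in 4.29% (2.52% to 7.2%) of sites, although G makes up 27.4% of the exon, and in 4.17% of other coding sites. C was rarer at AHNAK sites than at other coding sites, with 26.1% against 33.3% at the site and 26.7% against 37.4% at the second base after it, in an exon with 21.6% C. The third base after the site was A in 42.6% of AHNAK sites and in 33.1% of other coding sites. The base pair AT followed the site in 18.8% of cases, against 6.45% of positions in the exon, TC in 15.8% against 4.72%, and GA in 1.65% against 9.37%. The IgG sites of AHNAK had T at 33.3% (23.9% to 44.4%) of sites and G after 6.41% (2.77% to 14.1%), against 36.1% and 4.06% at other coding IgG sites. AHNAK2, whose exon is richer in G and C (58.8%, against 49.0% in AHNAK), had C at 41.4% and T at 24.1% (12.2% to 42.1%) of its 29 PDCD4 sites.

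Other genes with a coding exon of at least 4000 nt were taken for comparison. There were 75 of them with a listed site, and 64 had at least 10 cDNAs over both lists. Of the 64, 8 had a log2 ratio above 1 and 7 a ratio below -1, with a median of -0.07, beside 18.8% above 1, 18.1% below -1 and a median of -0.08 over all genes tested. By the number of PDCD4 sites in the exon, AHNAK ranked 2, after PLEC, which encodes the cytoskeletal linker plectin and held 562 sites in an exon of 6216 nt, and AHNAK2 ranked 10. Per length AHNAK ranked 3 of 66 and AHNAK2 ranked 32. The exon of PLEC had 90.4 PDCD4 sites per kb, that of SRRM2, a nuclear speckle scaffold, 17.6, and that of AHNAK 17.5. The median of the 64 other genes was 1.64, close to the 1.73 of AHNAK2. The exon of each gene was the largest coding one over all annotated transcripts, and whether MCF10A cells use these transcripts was not examined. The log2 ratio within the exon was 4.90 (4.53 to 5.33) for PLEC, 2.85 (2.1 to 3.94) for ANKRD11, a chromatin regulator, and 0.81 (0.513 to 1.12) for SRRM2, and AHNAK (1.48, 1.26 to 1.7) lay between ANKRD11 and SRRM2. The interval of AHNAK2 (1.39, 0.788 to 2.13) overlapped those of AHNAK, ANKRD11 and SRRM2, and also those of RAI1, DST and FAT1. RAI1, DST and FAT1 had 2.52, 1.09 and 8.11 PDCD4 sites per kb of their exon.

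**Figure D5:**
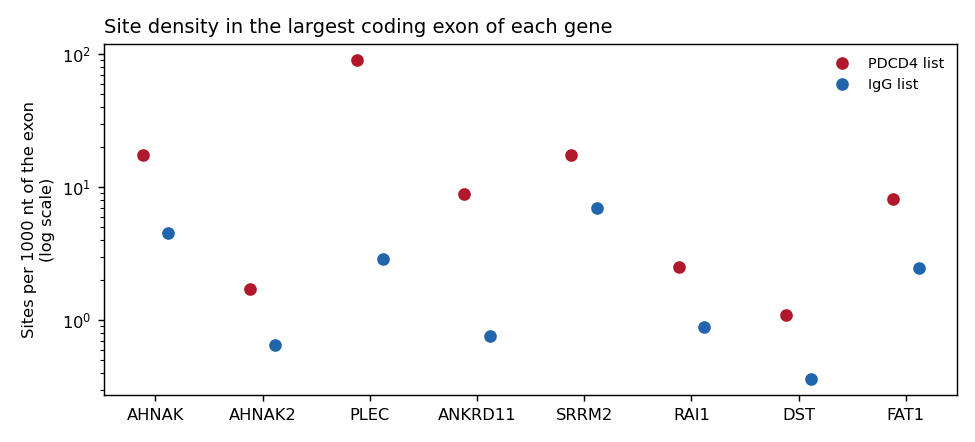
Listed sites per kb (log scale) in the largest coding exon of AHNAK, AHNAK2 and the 6 other genes with a large coding exon and the highest summed scores, for PDCD4 (red) and IgG (blue). AHNAK, at 17.5 PDCD4 sites per kb, lies beside SRRM2 and below PLEC, and AHNAK2, at 1.73, lies between RAI1 and DST.

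The genes closest to AHNAK in the pair of levels, by distance on the log2 scale over the lists of PDCD4 and IgG among 10362 genes with a site in both, were MYH9, KRT7 and SLC7A5. MYH9, the heavy chain of a non-muscle myosin, was nearest, with 930 cDNAs against 236 (distance 0.243). KRT7, a keratin, had 808 against 267 (0.327), and SLC7A5, an amino acid transporter, had 1017 against 351 (0.361). Closest to AHNAK2 were POLE, a DNA polymerase subunit, with 148 against 42 cDNAs (0.118), and GCN1 with 158 against 49 (0.123). Over only 2 pooled lists such likeness is a matter of level.

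Of 9 genes for known partners and relatives of AHNAK proteins, 5 had at least 10 cDNAs over both lists, 1 of them with a log2 ratio above 1 and 1 below -1, where 18.8% and 18.1% of all genes tested lay. PLCG1, a phospholipase that AHNAK can activate, had 114 cDNAs against 20 (log2 ratio 1.89, 1.25 to 2.71). ANXA2, which encodes annexin A2, had 111 against 153 (-1.03, -1.4 to -0.669), and S100A10, its partner, 47 against 22 (0.49, -0.232 to 1.33). MYOF, a membrane repair protein, had 117 against 120 (-0.60, -0.984 to -0.225), and PRKCA, a protein kinase C, 55 against 65 (-0.81, -1.35 to -0.268). DYSF and CACNB2 had fewer than 10 cDNAs, and S100B and PRX had no listed site. The median of the 5 was -0.60, and their ratios went both ways.

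Of the whole lists, the PDCD4 list summed to 409308 cDNAs and the IgG list to 276139, and 721 positions were in both. All 9 markers of breast epithelial cells had a PDCD4 site (8 an IgG site), among them KRT5 with 352 cDNAs, although KRT14 had only 3. The markers of leukocytes, endothelium, fibroblasts and hepatocytes, PTPRC, PECAM1, COL1A1 and ALB, had no listed site.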

How the data were processed

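The authors processed the iCLIP reads with iCount against the Ensembl release 88 genome (GRCh38) and deposited 1 list per immunoprecipitation, with the replicates pooled. The score is a raw cDNA count per site, not normalized, and the deposited sites had already been filtered by false discovery rate. The aligner and the treatment of multiply mapping reads are not given in the sources used here. PCR duplicates and neighbouring cDNAs are not independent, so intervals cover counting error only.

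Sites were read with their strand and placed in GENCODE release 44 (same build), with coding sequence taking precedence over UTRs, and exons over introns. Gene values are summed scores per 10000 cDNAs, with 1 cDNA added in ratios. Intervals are 95%: Wilson for shares, exact Poisson for densities, and exact conditional binomial (Clopper-Pearson) for ratios of counts. Repeats were found from the exon sequence at shifts of 30 to 3000 nt. The code for ratios and their intervals was checked on simulated counts of known fold. Alternatives changed the score minimum, the unit (sites for cDNAs), the pseudocount, the totals, positions in both lists, shared labels, the transcript, the merging of sites and the repeat definition.

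The genes, the partner and marker lists and the rules for named sites and genes were chosen with earlier results of these data known. Named sites are the 5 highest of each gene and list. Named genes are the 3 nearest in level, the 6 largest among those with a coding exon of at least 4000 nt, and fixed lists; 1 gene that this rule names is not reported here. Of the sites that this rule names, those of AHNAK2 and IgG are shown in part. No protein sequences were used here. Python 3.11.15, numpy 2.4.6, pandas 2.3.3, scipy 1.17.1, numba 0.67.0 and matplotlib 3.10.9 were used.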

Additional observations from a re-analysis of the deposited data

How the results depend on the processing

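No paired analysis was possible because each list pools its replicates, and for the same reason no replicate could be left out. Of 63 alternative values, 44 stayed within the counting interval of the main value or, for counts of genes, within 1.5 times of it. None of the 16 alternative log2 ratios changed sign. With scores greater than 5 and list totals recomputed from them, the log2 ratio was 0.19 for AHNAK and 1.74 for AHNAK2 (12 cDNAs, no IgG site listed), and 203 of 393 genes were above a log2 ratio of 1. With the same scores and the totals of all sites, an alternative chosen after seeing the data, the values were 1.58, 3.13 and 230. At these scores the AHNAK ratio thus depended on which totals were used. At these scores the coding share was 50% of the 2 IgG sites of AHNAK and 100% of the 2 PDCD4 sites of AHNAK2, and the share in repeats was 25% for AHNAK (2 of 8) and 100% for AHNAK2 (2 of 2). The main count of such genes, 1807 of 9594, was 962 of 6514 when sites were counted in place of cDNAs and 1129 with 5 cDNAs added, while AHNAK stayed at 1.25 and 1.30 and AHNAK2 at 0.77 and 1.11. AHNAK2 was thus below 1 when sites were counted. With 20 or 50 bases after the site, 73.3% or 94.7% of the PDCD4 sites in the AHNAK exon had a single copy, against 68.5% and 90.7% of its positions. The restriction to single-copy positions in the repeat comparison was also chosen after seeing the data. AHNAK2 rests on 50 and 20 sites, which limits every statement on its exon.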
